A study of Mus musculus with 6 samples.

Results

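The eosinophil granule protein genes Epx, Prg2, Prg3, Ear1, Ear2 and Ear6 were followed in donor hematopoietic stem and progenitor cells (HSPCs) recovered after bone marrow transplantation (BMT). The 6 genes were taken by name, and all 6 were found by Ensembl identifier among the 24965 genes of the expression table. They were chosen by their FPKM in Hemgn-/- against WT cells, since some of them stood out between the genotypes in these same libraries, so their levels in both groups are given below as a description with no test. All 6 passed the filter of FPKM above 1 in at least 1 library (FPKM, the fragments of a gene scaled to its length and to the total of the library), as did 13739 genes in all.

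RNA was sequenced from 3 WT and 3 Hemgn-/- libraries. Donor marrow came from WT or Hemgn-/- mice on a C57BL/6 CD45.2 background and was given to CD45.1 recipients irradiated with a split dose of 9 Gy. In the Hemgn-/- donors Hemgn, which encodes a nuclear regulator of blood cells, had been disrupted throughout the body with zinc finger nucleases. The donor cells were sorted 6 h after transplantation, and the mice of the study were 8 to 10 weeks old and of both sexes. The sample labels call the sorted cells CD45.2+Lin-Sca-1+, while the design text adds c-Kit+. The study's methods call the 3 replicates of a group biological, without saying which donor or recipient each library came from. Hemgn, the disrupted gene, was at 5.64, 2.96 and 4.68 FPKM in WT replicates 1, 2 and 3, against 0.755, 0.913 and 1.60 FPKM in Hemgn-/- replicates 1, 2 and 3. Its log2 fold change, Hemgn-/- minus WT on the log2(FPKM + 1) scale, was -1.37 (adjusted p = 0.0114, limma across all genes tested). Without WT replicate 3 that adjusted p was 0.0503, and over the alternatives tried it ranged from 0.00738 to 0.0613.

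Eosinophils are granulocytes that arise in the bone marrow and fill large specific granules with cationic proteins while they are still precursors. Major basic protein forms the crystalline core of the granule, and eosinophil peroxidase and the eosinophil-associated ribonucleases lie in the matrix around it. The genes of major basic protein and eosinophil peroxidase are transcribed mainly during the promyelocyte and myelocyte stages, so their mRNA marks developing more than mature eosinophils. GATA1, C/EBP epsilon and PU.1 are transcription factors known to act in the eosinophil programme.

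Prg2 was the most abundant of the 6 transcripts in every library, and Epx showed the widest gap between genotypes. Epx was 9.33-fold higher in WT than in Hemgn-/- cells, Prg2 4.03-fold and Prg3 3.41-fold. Ear2 stood at 67.3% of its WT mean, and Ear1 and Ear6 overlapped between the groups. Summed over the 6 genes, the level was 303 ± 30.9 FPKM in WT and 77.9 ± 8.93 FPKM in Hemgn-/- libraries (SD, n = 3 each). These are bulk libraries, in which fewer cells that express these genes and less of their RNA per cell cannot be told apart. Which cells the RNA came from was not tested.

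**Figure D1:**
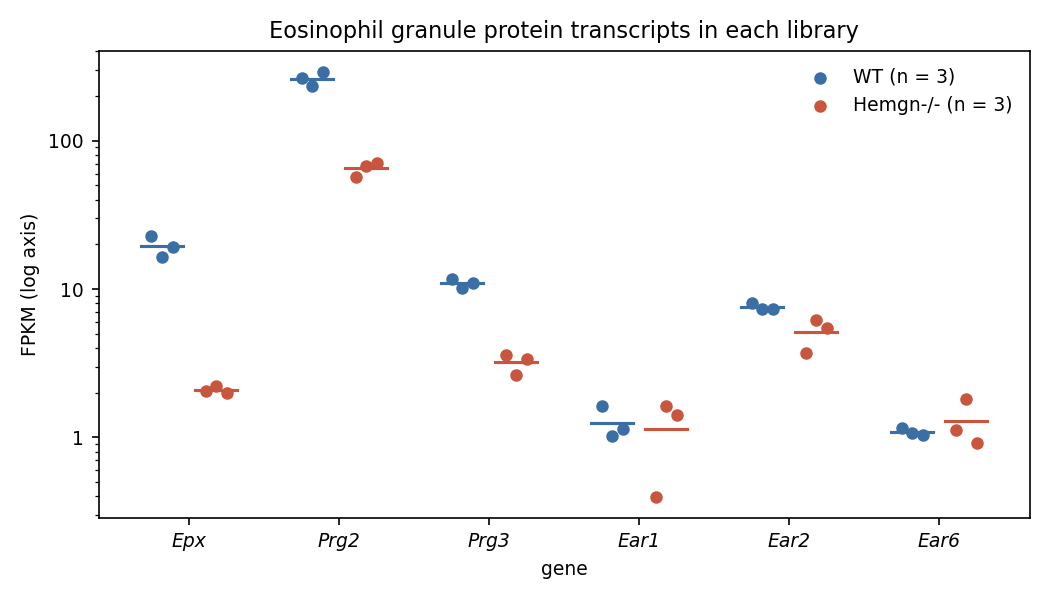
FPKM of the 6 genes on a log axis, with 1 point per library and a line at the mean of each group (3 WT and 3 Hemgn-/- libraries). The points of Epx, Prg2, Prg3 and Ear2 are lower in all 3 Hemgn-/- libraries than in any WT library, while those of Ear1 and Ear6 overlap.

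Prg2 encodes major basic protein, the toxic core protein of the granule. It lies on the plus strand at chr2:84980461-84983632 (GRCm38, ENSMUSG00000027073) and codes for 223 amino acids. Its level was 263, 233 and 290 FPKM in WT replicates 1, 2 and 3 and 56.7, 68.0 and 70.4 FPKM in Hemgn-/- replicates 1, 2 and 3. The lowest WT library was thus well above the highest Hemgn-/- library. The means were 262 ± 28.6 and 65.0 ± 7.31 FPKM, and the log2 fold change was -1.995. In WT cells Prg2 ranked 146 by mean FPKM among all genes of the table, and in Hemgn-/- cells it ranked 735. It alone made up 82.5% to 87.9% of the summed FPKM of the 6 genes, with all 3 WT libraries above all 3 Hemgn-/- libraries. The Hemgn-/- values rested on 1304 to 1705 fragments and the WT values on 4997 to 6742.

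Prg3, the neighbouring paralog of Prg2, encodes a second major basic protein. It starts 4583 bases after the end of Prg2 on the same strand, at chr2:84988215-84993886 (ENSMUSG00000027072), and its coding sequence aligned with that of Prg2 at 66.3% identity, gaps counted as differences. Prg3 was at 11.7, 10.1 and 11.0 FPKM in WT replicates 1, 2 and 3, against 3.61, 2.62 and 3.39 FPKM in Hemgn-/- replicates 1, 2 and 3. Again no library of one group reached the range of the other. The means were 10.9 ± 0.772 and 3.21 ± 0.522 FPKM, for a log2 fold change of -1.51. No window of 100 bases in a Prg2 or Prg3 transcript was found in the transcripts of another gene. The pair differed in level by more than an order of magnitude while the ratio of Prg2 to Prg3 stayed in overlapping ranges, at 22.6, 23.0 and 26.3 in WT and 15.7, 26.0 and 20.8 in Hemgn-/- libraries.

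Epx encodes eosinophil peroxidase, a heme enzyme that oxidises bromide and thiocyanate. It lies on the minus strand at chr11:87864000-87875536 (ENSMUSG00000052234), 59587 bases from Mpo, its counterpart in neutrophils, and codes for 716 amino acids. Epx was at 22.7, 16.5 and 19.3 FPKM in WT replicates 1, 2 and 3. It was at 2.05, 2.23 and 1.99 FPKM in the Hemgn-/- libraries, which lay close together. The means were 19.5 ± 3.07 and 2.09 ± 0.129 FPKM, so Hemgn-/- cells held 10.7% of the WT level. The values came from 1158 to 1468 fragments in WT and 154 to 160 in Hemgn-/- libraries, and each Hemgn-/- value had an exact 95% Poisson interval within 1.69 to 2.61 FPKM, which covers counting error only. Its log2 fold change of -2.72 was the fourth lowest of all genes tested, while those of Prg2 and Prg3 ranked 7 and 24 from the lowest.

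Ear2, an eosinophil-associated ribonuclease of the RNase A family, lies on the plus strand at chr14:44102654-44103534 (ENSMUSG00000072596). Ear2 was at 8.11, 7.34 and 7.38 FPKM in WT replicates 1, 2 and 3, against 3.70, 6.16 and 5.49 FPKM in Hemgn-/- replicates 1, 2 and 3. All WT values were higher, but Hemgn-/- replicate 1 was well below the other two. The means were 7.61 ± 0.435 and 5.12 ± 1.27 FPKM, and the log2 fold change was -0.51, or -0.34 without Hemgn-/- replicate 1. The recovered fragments were 138, 135 and 147 in WT and 73, 116 and 114 in Hemgn-/- libraries. The exact 95% Poisson interval of Ear2 in Hemgn-/- replicate 2, 5.09 to 7.39 FPKM, overlapped that of WT replicate 2, 6.15 to 8.68 FPKM.

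Ear1 and Ear6, related ribonucleases on the same chromosome, sat near the detection filter. Ear1 lies on the minus strand at chr14:43818765-43875517 (ENSMUSG00000072601), 227137 bases from Ear2, and had 1.62, 1.02 and 1.14 FPKM in the WT libraries against 0.399, 1.62 and 1.42 FPKM in the Hemgn-/- ones. The lowest value was again that of Hemgn-/- replicate 1, which rested on 8 fragments, and the other libraries overlapped. The log2 fold change of Ear1 was -0.12, and without Hemgn-/- replicate 1 it was 0.17. Ear6 lies on the plus strand at chr14:51853699-51854643 (ENSMUSG00000062148), 7750165 bases beyond Ear2, and had 1.16, 1.08 and 1.03 FPKM in the WT libraries against 1.12, 1.82 and 0.915 FPKM in the Hemgn-/- ones. Here Hemgn-/- replicate 2 was the highest, with 45 fragments against 25 to 29 in the other libraries. The log2 fold change of Ear6 was 0.11, and -0.05 without Hemgn-/- replicate 2. The exact 95% Poisson intervals of Ear6 overlapped between all 6 libraries and cover counting error only.

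The ribonucleases resemble each other more closely than Prg2 and Prg3 do. The coding sequences of Ear1 and Ear2 were 95.3% identical, and Ear6 was 87.6% identical to Ear1 and 87.9% to Ear2. Of the windows of 100 bases in annotated transcripts, 23.9% of Ear1 windows occurred in Ear-ps9 or Ear10, and 13.9% of Ear2 windows in Ear10 or Ear-ps2. Epx, Prg2, Prg3 and Ear6 had 0 such windows. Reads of Ear1 and Ear2 can thus be shared with near-identical copies, and in this respect alone their levels are less certain than those of the other 4 genes.

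Of the 6 genes 4 had all 3 Hemgn-/- libraries below all 3 WT libraries, where 8.18% of all genes tested were lower without overlap. Since the genes were listed on this contrast, nothing is read from that count. The median log2 fold change over the 6 genes was -1.01, against 0.0875 over all genes tested. Scaling the libraries by the median ratio brought the median over all genes to 0.00763, and relative to the respective median Epx was at -2.81 in both cases and Prg2 at -2.08 and -2.10. Ear6 lay 0.02 above that median, and 0.05 above after the rescaling.

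**Figure D2:**
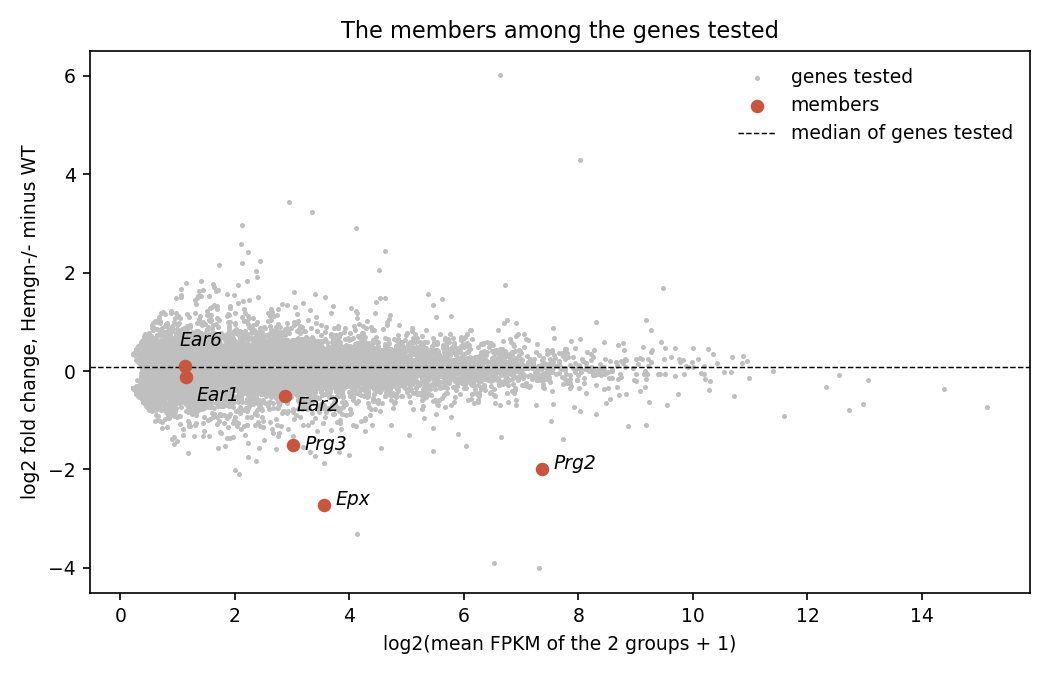
Log2 fold change, Hemgn-/- minus WT, of each gene tested against log2 of the mean FPKM of the 2 groups plus 1, with 1 point per gene, the 6 eosinophil granule protein genes in red and the median of all genes as a dashed line. Epx at -2.72 and Prg2 at -1.995 lie low in the plot, with the erythroid genes Hba-a1 at -4.01, Hbb-bs at -3.90 and Alas2 at -3.32 lower still (reads of the globin genes may be divided with near-identical copies), while Ear1 and Ear6 lie near the dashed line at low FPKM.

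Epx, Prg2 and Prg3, the 3 highest of the 6 genes in WT libraries, did not all keep 1 ratio between genotypes. The ratio of Prg2 to Epx was 11.6, 14.1 and 15.0 in WT replicates 1, 2 and 3 and 27.7, 30.4 and 35.5 in Hemgn-/- libraries, with means of 13.6 ± 1.77 and 31.2 ± 3.96. Every Hemgn-/- library thus held less Epx for its Prg2 than any WT library. The ratio of Epx to Prg3 was 1.78 ± 0.157 in WT and 0.669 ± 0.160 in Hemgn-/- libraries, again without overlap. Prg2 exceeded Ear2 by 34.5 ± 4.20 times in WT and by 13.1 ± 2.16 times in Hemgn-/- libraries, and Epx exceeded Ear2 by 2.55 ± 0.276 times in WT but stood at 0.426 ± 0.111 of it in Hemgn-/- libraries. Ordered by mean FPKM, the WT libraries ran Prg2, Epx, Prg3, Ear2, Ear1 and Ear6, and the Hemgn-/- libraries ran Prg2, Ear2, Prg3, Epx, Ear6 and Ear1. Ear1 and Ear6 overlapped in both groups, so their order is not resolved, while the library values of other neighbours in either order did not overlap. In Hemgn-/- replicate 1, however, the exact 95% Poisson intervals of Ear2 and Prg3 overlapped, at 2.90 to 4.65 and 2.92 to 4.42 FPKM. In Hemgn-/- replicate 2 that of Epx overlapped those of Prg3 and Ear6. The Hemgn-/- order of these genes is thus less certain than the ranges alone show.

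**Figure D3:**
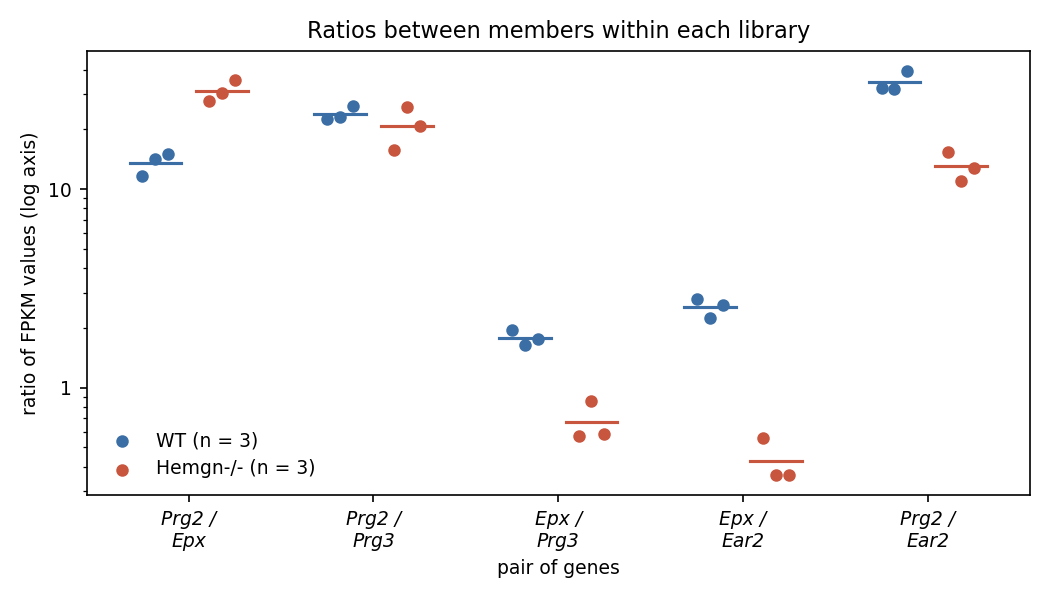
Ratios of FPKM values between pairs of the genes within each library, on a log axis, with 1 point per library and a line at the mean of each group. Prg2 over Epx is higher in all Hemgn-/- libraries, Epx over Prg3, Epx over Ear2 and Prg2 over Ear2 are lower in all of them, and Prg2 over Prg3 overlaps.

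Across the 6 libraries the levels of Epx, Prg2 and Prg3 on the log2(FPKM + 1) scale moved together, with Pearson correlations of 0.976 to 0.992, while that of Epx with Ear2 was 0.821, with Ear1 0.224 and with Ear6 -0.274. These values describe 6 points that fall into the 2 genotypes and share library depth. Among 6287 other genes with a mean of at least 5 FPKM, those whose profile was most like the averaged profile of the 6 genes were Suclg1 (r = 0.989), G0s2 (r = 0.986), Stmn1 (r = 0.984), Cenpe (r = 0.982) and Nfu1 (r = 0.981). Their gaps between genotypes were smaller than those of Epx, Prg2 and Prg3. Suclg1, a subunit of succinyl-CoA ligase, had a mean of 14.4 ± 0.210 FPKM in WT and 13.0 ± 0.544 FPKM in Hemgn-/- libraries, and Stmn1, a microtubule regulator, 49.3 ± 0.983 and 34.9 ± 4.43 FPKM.

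The promoters, taken from RefSeq with the build GRCm38.p6, are shown for the strongly and the weakly separated genes side by side. Each is printed up to the base before the first annotated exon of its gene. Capitals mark a TATAAA box in Epx, a GATA word in Prg3 (TTATCA, which is TGATAA on the other strand), a C/EBP word in Ear2 and the bases aligned with it in Ear6. The spans are chr11:87875537-87875786 on the minus strand for Epx, and chr2:84987965-84988214, chr14:44102404-44102653 and chr14:51853518-51853698 on the plus strand for Prg3, Ear2 and Ear6. The Ear6 stretch holds only 181 bases, since the rest of the 250 before its RefSeq start lies in an annotated exon.
Epx: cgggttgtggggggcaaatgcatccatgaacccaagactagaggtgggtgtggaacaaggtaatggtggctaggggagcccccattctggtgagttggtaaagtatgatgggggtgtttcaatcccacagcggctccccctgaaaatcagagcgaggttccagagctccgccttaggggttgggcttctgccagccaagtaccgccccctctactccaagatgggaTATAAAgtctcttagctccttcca
Prg3: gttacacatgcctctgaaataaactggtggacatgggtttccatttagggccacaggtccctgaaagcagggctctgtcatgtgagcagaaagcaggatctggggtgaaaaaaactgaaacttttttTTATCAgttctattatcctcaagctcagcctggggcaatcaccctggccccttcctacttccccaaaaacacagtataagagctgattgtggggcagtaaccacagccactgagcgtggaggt
Ear2: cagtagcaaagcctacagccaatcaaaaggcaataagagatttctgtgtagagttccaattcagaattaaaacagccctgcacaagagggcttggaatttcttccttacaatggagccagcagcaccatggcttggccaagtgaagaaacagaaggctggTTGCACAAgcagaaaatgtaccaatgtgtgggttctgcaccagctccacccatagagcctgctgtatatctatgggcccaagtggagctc
Ear6: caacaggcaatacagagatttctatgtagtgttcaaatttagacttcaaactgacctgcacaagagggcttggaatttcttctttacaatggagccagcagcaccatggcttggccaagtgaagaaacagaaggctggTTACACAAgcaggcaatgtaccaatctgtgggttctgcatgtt

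Each promoter was searched on both strands, and aligned, over the 250 bases before its RefSeq start. For Ear6 these include the bases not printed. The GATA words were AGATAA or AGATAG, and the same words with T in the first place. The others were the C/EBP word TTGCNNAA, the PU.1 word GAGGAA, the TATA box TATAAA and the box CCAAT. These share no letters where they matched here. Promoters were matched for 5 of the 6 genes, and Prg2 had no entry. The Epx TATAAA lay 24 to 19 bases before the start, and 12.4% of 32851 mouse promoters of that length held one. The Prg3 GATA word lay 123 to 118 bases before the start, and 26.5% of promoters held such a word. Ear1 and Ear2 held TTGCACAA at 92 to 85 and 90 to 83 bases before the start, a word that 9.56% of promoters matched, and Ear6 differed from the Ear2 word by G3A, positions being numbered from 1 at the word's 5′ end. The PU.1 word, found in 23.3% of promoters, was in none of the 5, and CCAAT, in 33.8% of promoters, was found 3 times in Ear1 and in Ear2 and once in Ear6. The Ear1 and Ear2 promoters aligned at 97.6% identity and the Ear6 promoter at 77.7% to 78.2% with them, while pairs with Epx or Prg3 aligned at 48.0% to 51.0%. Matches are letters in a window and say nothing of binding.

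Relatives of these genes by sequence were read from the same fit. Of 19 other RNase A genes listed, 7 were in the table and 2 passed the filter. Rnase6, an antimicrobial ribonuclease of monocytes and macrophages, had 65.7, 75.6 and 53.7 FPKM in the WT libraries against 102, 93.2 and 90.7 FPKM in the Hemgn-/- ones. It was higher in every Hemgn-/- library, with a log2 fold change of 0.55 ± 0.119 (SE, adjusted p = 0.03, limma over all genes tested). That call was lost when any library other than WT replicate 2 was left out, with adjusted p values of 0.0579 to 0.0856, and the alternatives ranged from 0.0108 to 0.106. Rnase4, a secreted ribonuclease, had a log2 fold change of -0.03 ± 0.123 (adjusted p = 0.904). Mpo, the only heme peroxidase gene other than Epx to pass the filter, had 252, 248 and 273 FPKM in the WT libraries against 214, 201 and 210 FPKM in the Hemgn-/- ones, and fell by 0.31 on the log2 scale (SE 0.064, adjusted p = 0.0265, limma). Its call was lost without WT replicate 1 or 3 or Hemgn-/- replicate 2 or 3, with adjusted p values of 0.0759, 0.086, 0.0818 and 0.102, and over the alternatives it ranged from 0.00907 to 0.154. The difference between Mpo and Epx, its neighbour on the chromosome, was not tested. Pxdn, which encodes the matrix peroxidase peroxidasin, did not pass the filter and had 0.035, 0.032 and 0 FPKM in the WT libraries (8, 8 and 0 fragments) against 0.189, 0.356 and 0.169 FPKM in the Hemgn-/- ones (50, 90 and 47 fragments). It was thus higher in each Hemgn-/- library, at levels far below those of Epx, and was not tested. Of all genes tested, 19.2% were higher in Hemgn-/- libraries without overlap. The other relatives in the table that did not pass the filter overlapped between the groups.

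Other genes of the eosinophil programme were read from lists of receptors, transcription factors, lipid mediator enzymes and granule packaging genes. Of 42 that passed the filter, 3 fell and 3 rose at an adjusted p under 0.05 (limma across all genes), beside 2.09% of all genes tested that fell, 4.37% that rose and 6.46% in either direction. By the study's thresholds, an unadjusted p under 0.05 and a change of 1.5-fold, 5 of the 42 passed beside 6.83% of all genes. The median log2 fold change was 0.072, near the 0.0875 of all genes. Without WT replicate 3, Hemgn-/- replicate 2 or Hemgn-/- replicate 3 the calls dropped from 6 to 3 in each case.

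The receptors and surface proteins of eosinophils showed no call in the direction of Epx and Prg2. Of 12 that passed the filter 0 fell and 2 rose, with a median log2 fold change of 0.245. At an unadjusted p under 0.05, 5 of the 12 passed, 1 lower and 4 higher. Beside them 21.4% of the 13739 genes tested passed, 887 lower and 2056 higher. Il5ra, the receptor for the eosinophil growth factor interleukin 5, had 2.104, 1.41 and 1.73 FPKM in the WT libraries against 2.60, 1.67 and 2.74 FPKM in the Hemgn-/- ones (log2 fold change 0.27 ± 0.188, SE, adjusted p = 0.457). The eotaxin receptor gene Ccr3 had 2.195, 1.62 and 2.04 FPKM in the WT libraries against 2.67, 2.52 and 2.97 FPKM in the Hemgn-/- ones (0.34 ± 0.148, adjusted p = 0.235). Siglecf, the inhibitory lectin used to sort mouse eosinophils, had 10.9, 16.8 and 11.0 FPKM in the WT libraries against 17.2, 11.3 and 16.3 FPKM in the Hemgn-/- ones (0.21 ± 0.197, adjusted p = 0.588). Il5ra and Siglecf overlapped between the groups. Ccr3 was higher in each Hemgn-/- library, as were 19.2% of all genes tested, without passing the test. The 2 that rose were Csf2rb, the signalling chain shared by the interleukin 3, interleukin 5 and GM-CSF receptors (0.45 ± 0.082, adjusted p = 0.0152), and Adgre1, which encodes the F4/80 antigen of macrophages and eosinophils (0.51 ± 0.115, adjusted p = 0.0343). The Csf2rb call was lost without WT replicate 3, Hemgn-/- replicate 2 or Hemgn-/- replicate 3 (adjusted p = 0.0557, 0.0532 and 0.0786) and the alternatives ranged from 0.00265 to 0.0879. Csf2rb also has a close paralog, Csf2rb2, whose reads may be divided with it. The Adgre1 call was lost when any 1 of the 6 libraries was left out, with adjusted p values of 0.0751 to 0.109, and the alternatives ranged from 0.0166 to 0.109.

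Of the 12 transcription factor genes 2 fell and 0 rose. At an unadjusted p under 0.05 by limma, 4 of the 12 passed, all lower. Of the 13739 genes tested 887 were lower at that threshold and 2056 higher. Cebpe, which encodes C/EBP epsilon, the factor of late granulocyte differentiation, had 71.0, 91.6 and 87.2 FPKM in the WT libraries against 35.0, 34.6 and 31.5 FPKM in the Hemgn-/- ones. It fell by 1.27 on the log2 scale (SE 0.105, adjusted p = 0.000364, limma) and was called under all 15 alternatives, with adjusted p values from 0.000109 to 0.0098. Spi1, which encodes PU.1, a master regulator of myeloid cells, had 179, 335 and 220 FPKM in the WT libraries against 150, 115 and 91.8 FPKM in the Hemgn-/- ones. It fell by 1.01 (SE 0.235, adjusted p = 0.0399), but WT replicate 2 stood above the other WT libraries. Without that library its log2 fold change was -0.76 (adjusted p = 0.0627), and the call was also lost without WT replicate 3 or Hemgn-/- replicate 2 or 3 (adjusted p = 0.0923, 0.11 and 0.138), within alternatives that ranged from 0.0118 to 0.151. Gata1, whose factor directs precursors to the eosinophil, erythroid and mast cell lines, averaged 3.52 ± 0.613 FPKM in WT cells and 3.93 ± 0.513 FPKM in Hemgn-/- cells (log2 fold change 0.13 ± 0.151, SE, adjusted p = 0.671).

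None of the 6 lipid mediator genes was called by limma, and 0 of them had an unadjusted p under 0.05. Of 12 granule packaging and release genes 1 fell and 1 rose, beside 2.09% of all genes tested that fell and 4.37% that rose. Cd63, a membrane protein of granules and lysosomes, had 109, 117 and 112 FPKM in the WT libraries against 65.1, 80.5 and 70.7 FPKM in the Hemgn-/- ones, and fell by 0.64 on the log2 scale (SE 0.087, adjusted p = 0.00432, range over the alternatives 0.000621 to 0.0413). Vamp8, a SNARE protein of granule release, had 27.4, 23.9 and 30.2 FPKM in the WT libraries against 39.8, 48.8 and 42.7 FPKM in the Hemgn-/- ones (0.67 ± 0.111, adjusted p = 0.01, range over the alternatives 0.00372 to 0.0546). Both pairs of groups were free of overlap, in opposite directions. Of all genes tested 8.18% were lower and 19.2% higher in Hemgn-/- libraries without overlap.

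**Figure D4:**
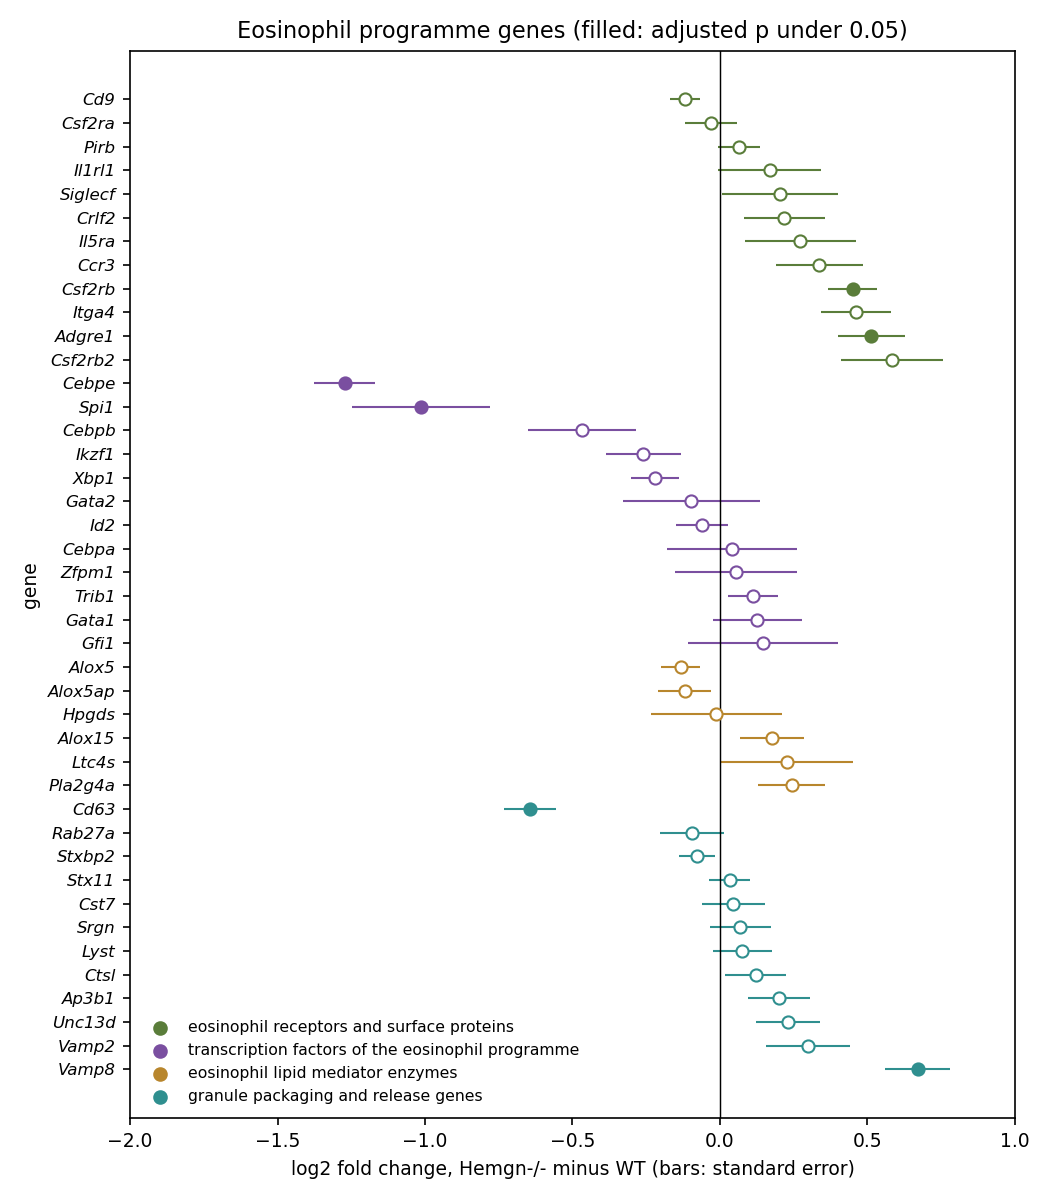
Log2 fold change, Hemgn-/- minus WT, of 42 genes of the eosinophil programme outside the 6 granule protein genes, with the standard error of the limma fit as bars, colours for the 4 lists and filled points for an adjusted p under 0.05. Cebpe at -1.27 is the lowest point, and the filled receptor points Csf2rb at 0.45 and Adgre1 at 0.51 lie to the right of 0.

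Markers of other cell types were read in the same libraries. Of all genes tested, limma called 2.09% lower and 4.37% higher in Hemgn-/- cells. HSPC markers were present but low, with Kit at 6.14 to 7.24 FPKM in the WT libraries against 5.50 to 5.90 FPKM in the Hemgn-/- ones and Ly6a, which encodes Sca-1, at 8.27 to 10.2 and 11.4 to 17.3 FPKM, so Prg2 exceeded both in every library. The neutrophil granule gene Ngp ran from 43176 to 46692 FPKM in WT and from 26488 to 27961 FPKM in Hemgn-/- libraries, so transcripts of differentiated granulocytes were abundant in cells labelled as lineage negative. Summed over 14 neutrophil and granulocyte precursor markers the level was 77500 to 83200 FPKM in WT and 51300 to 57000 FPKM in Hemgn-/- libraries, with 5 lower and 0 higher by limma. Summed over 12 erythroid markers it was 499 to 585 and 65.5 to 89.3 FPKM, with 5 of the 10 that passed the filter lower. Monocyte and macrophage markers summed to 23000 to 25700 and 16600 to 20700 FPKM, with 3 of 12 lower and 2 higher. Lyz2, the macrophage lysozyme gene, made up 97.4% to 98.2% of that sum, and its own call was lost under 13 of 15 alternatives, with adjusted p values from 0.00655 to 1.0. The other 11 monocyte and macrophage markers summed to 453 to 517 FPKM in WT and to 405 to 489 FPKM in Hemgn-/- libraries, which overlapped. The part of these cells in the levels of Epx, Prg2 and Prg3 was not tested.

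Markers of basophils and mast cells, the granulocytes nearest to eosinophils in origin, did not separate in sum. They reached 788 to 862 FPKM in WT and 820 to 863 FPKM in Hemgn-/- libraries, with 0 of 9 called by limma. At an unadjusted p under 0.05, 3 of the 9 passed, all higher in Hemgn-/- cells. Of the 13739 genes tested 2056 were higher at that threshold and 887 lower. B cell markers summed to 1160 to 1220 and 1380 to 1550 FPKM, with 3 of 6 higher by limma, beside 4.37% of all genes tested. T and NK cell markers summed to 87.6 to 98.7 and 93.8 to 121 FPKM, with 1 of 6 higher. HSPC markers summed to 36.3 to 42.3 and 47.7 to 56.9 FPKM, with 2 of 10 higher. No marker of any of these lists was at 0 in all libraries. The summed eosinophil granule protein level, at 269 to 330 FPKM in WT and 67.6 to 83.6 FPKM in Hemgn-/- libraries, thus differed in the same direction as the neutrophil and erythroid sums, with or without the most abundant gene of each list, and in the opposite direction to the B cell and HSPC sums. Single markers did not all follow their sum. Log2 fold changes were above 0 for 3 of 14 neutrophil and 2 of 10 erythroid markers tested. They were below 0 for 1 of 6 B cell and 3 of 10 HSPC markers tested.

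**Figure D5:**
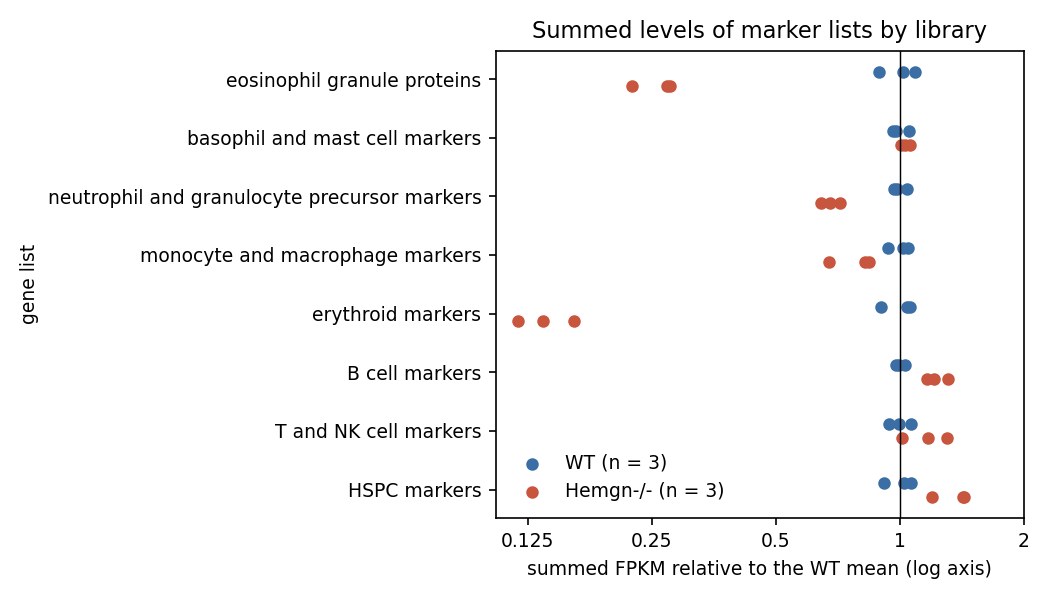
Summed FPKM of the eosinophil granule protein genes and of 7 marker lists in each library, relative to the WT mean of the list, on a log axis with 1 point per library. The Hemgn-/- points of the eosinophil granule proteins and of the erythroid markers lie farthest to the left, and those of the basophil and mast cell markers overlap the WT points.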

How the data were processed

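RNA was sequenced as paired reads from sorted donor cells (3 WT and 3 Hemgn-/- libraries). Levels were deposited as FPKM, with each library in a column of its own, and per the labels the notes on processing name Bowtie2 2.2.3, HISAT2 2.1.0, TopHat2, HTSeq 0.6.0 and GRCm38, without their roles. The labels and the design text differ on the c-Kit gate, the injection route and the library kit. Of 24965 genes 24921 matched GENCODE M21, which gave symbols and exon lengths. Values multiplied by exon length were whole fragments in all 6 libraries for 95.7% of 13486 genes of at most 100 fragments (tolerance 0.05), and the depth so recovered was 23667976 to 28897318 fragments. Exact Poisson intervals cover counting error only, since reads without molecular identifiers are not independent molecules. Unmapped value columns numbered 0.

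Genes above 1 FPKM in at least 1 library (13739) were fitted as log2(FPKM + 1) with limma 3.58.1 in R 4.3.3 (eBayes with trend, two-sided, Benjamini-Hochberg over all genes tested, adjusted p under 0.05), which understates changes of low genes. The procedure was run on simulated counts of a set spread, which need not match the spread of these libraries. Alternatives were the pseudocount, the filter, the scaling, the variance model, the replicate number as a block, each library left out, the study's threshold, and, chosen after the data were seen, limma voom on the recovered fragments. The genes named are the 6 members, Hemgn, their relatives above the filter, the called genes of each list (at most 6 by size of change), Il5ra, Ccr3, Siglecf, Gata1 and Cebpe, and the 5 most similar profiles. Not every called marker of another cell type is named, and Kit, Ly6a and Csf2rb2 were added after their values were seen. Pxdn, which did not pass the filter, is named outside this rule. The members and lists were chosen with earlier results of these data known. Alignments used Biopython 1.88.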

Additional observations from a re-analysis of the deposited data

How the results depend on the processing

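The log2 fold changes of Epx, Prg2, Prg3 and Ear2 stayed below 0 under each of the 15 alternatives, at -3.21 to -2.61, -2.10 to -1.90, -1.77 to -1.41 and -0.64 to -0.34. The median over the 6 genes lay between -1.06 and -0.958 with 1 library left out and between -1.19 and -1.01 under the others. Ear1 turned above 0 without Hemgn-/- replicate 1, and Ear6 below 0 without Hemgn-/- replicate 2. The 887 genes called became 466 with all genes above 0 FPKM, 390 without the trend in eBayes, 1287 when each library was rescaled to the same total, 1049 with voom on the recovered fragments, and 373 to 688 with 1 library left out (leaving out WT replicate 1 gave 470, WT replicate 3 gave 494, Hemgn-/- replicate 2 gave 525 and Hemgn-/- replicate 3 gave 373). The share of calls that were higher in Hemgn-/- cells was 67.6%, but 46.9% with median-ratio scaling, 51.5% with quantile normalization and 81.5% with rescaling to the same total. Calls in the eosinophil programme (6) became 2 without the trend and 3 to 5 with 1 library left out, and those among markers of other cells (21 of 67) became 13 without the trend and 14 to 18 with 1 library left out. The 2 relatives called became 0 with all genes above 0 FPKM and without the trend, 1 with median-ratio scaling, with rescaling to the same total and with the replicate block, and 0 to 2 with 1 library left out. Hemgn kept a log2 fold change of -1.37 with all genes above 0 FPKM (adjusted p = 0.0613, limma), and ranged from -1.58 to -1.20 with 1 library left out. The cause of these shifts was not tested. Samples that share a replicate number showed no shared deviation (correlations of -0.0428, -0.00936 and 0.0111, against -0.0291 to 0.0365 for other pairs). With 3 libraries a group, this check cannot decide whether the numbers pair them. The fit with the replicate block called 636 genes, 5 of the eosinophil programme and 15 markers, with a median over the 6 genes of -1.01 and Hemgn at -1.37. Depth limits Ear1 and Ear6, at 8 to 45 fragments a library.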
